A study of Homo sapiens with 28 samples.

Results

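The regions described here are the annotated start sites of the cytoplasmic ribosomal protein genes, the RPL genes of the large (60S) subunit and the RPS genes of the small (40S) subunit. They were taken from an ATAC-seq table of 154985 regions by name alone. A region was included when an annotated transcription start lay inside it and the symbol of that start was RPL or RPS followed by digits and by nothing or one of the letters A, L and X. This gave 63 regions with 60 gene symbols among the 18012 regions that held an annotated start, 38 for the large and 25 for the small subunit, spread over 20 autosomes with 10 on chromosome 19.

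ATAC-seq measures open chromatin by the places where a transposase can insert sequencing adapters. It was run once on each of 22 untreated human myeloma cell lines, which are established cultures of malignant plasma cells, and once on 6 of them (Karpas620, KMS27, L363, MM1S, OPM2 and RPMI8226) after 10 µM lenalidomide, assayed on day 3. Every group thus has 1 library per line, so lines were the replicates and no error within a line is known. The 6 untreated libraries of these lines are labelled only as receiving no treatment, and no vehicle is named. Libraries held between 1599857 and 5564534 counts in regions. Plasma cell markers were open: SDC1, XBP1, IRF4, PRDM1, TNFRSF17, CD38, MZB1 and POU2AF1 had a peak at a start region in at least 23 of the 28 libraries, whereas SLAMF7 had one in 3. Of 10 marker genes of other cell types, 5 had a start region, and CD3E and ALB had a peak in 1 library each, KRT8 in 8, EPCAM in 11 and COL1A1, a fibroblast collagen gene, in 27.

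Ribosomal proteins assemble with ribosomal RNA into the subunits that carry out protein synthesis, and a plasma cell, which secretes antibody, depends heavily on this machinery. Most of these genes are expressed in every cell, and their mRNAs typically begin with a C followed by a run of pyrimidines, the 5′ terminal oligopyrimidine (TOP) element, through which mTOR signalling controls their translation. Some members have further roles. RPL5 and RPL11 bind MDM2 together with 5S RNA and thereby stabilise p53, and loss of one copy of RPS19, RPL5 or RPL11 causes Diamond-Blackfan anaemia.

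The letters around the start are shown for members on which the results below turn, as 45 bases that run 5′ to 3′ from 30 bases before the start through 15 bases from it. They were read from GRCh37 at the canonical GENCODE start, and the capitals mark the unbroken run of pyrimidines that begins with a C at the first transcribed base.
RPL5, chr1:93297567-93297611, plus strand: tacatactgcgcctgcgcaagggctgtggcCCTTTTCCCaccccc
RPL11, chr1:24018266-24018310, plus strand: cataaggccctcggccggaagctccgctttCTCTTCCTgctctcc
RPL22, chr1:6259641-6259685, minus strand: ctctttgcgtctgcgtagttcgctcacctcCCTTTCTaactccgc
RPL27A, chr11:8704309-8704353, plus strand: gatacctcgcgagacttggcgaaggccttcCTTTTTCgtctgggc
RPS3A, chr4:152020750-152020794, plus strand: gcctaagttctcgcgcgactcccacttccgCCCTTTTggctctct
RPS6, chr9:19380220-19380264, minus strand: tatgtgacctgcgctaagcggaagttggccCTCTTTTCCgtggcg
RPS14, chr5:149829288-149829332, minus strand: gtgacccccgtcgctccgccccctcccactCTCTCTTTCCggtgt
RPS19, chr19:42364295-42364339, plus strand: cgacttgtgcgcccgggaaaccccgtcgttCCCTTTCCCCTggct
RPS24, chr10:79793591-79793635, plus strand: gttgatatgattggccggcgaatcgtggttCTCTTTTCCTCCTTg

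The paralogs RPL39L, RPL10L and RPS27L belong to the set by symbol but lack this element at the annotated start. RPL39L and RPL10L are copies of RPL39 and RPL10 known from the male germ line, and RPS27L is a copy of RPS27 that p53 induces. Each begins with a G.
RPL39L, chr3:186857270-186857314, minus strand: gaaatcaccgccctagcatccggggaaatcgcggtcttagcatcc
RPL10L, chr14:47120970-47121014, minus strand: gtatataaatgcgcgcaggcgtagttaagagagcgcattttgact
RPS27L, chr15:63449662-63449706, minus strand: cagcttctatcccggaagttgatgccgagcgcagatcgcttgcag

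The canonical start of the gene lay inside the region for 59 of the 63 members. Of these 59 starts, 47 had a C as the first base and 43 (72.9%) had the C followed by at least 4 more pyrimidines, against 866 of 18978 autosomal protein-coding starts (4.56%). The longest run, 14 pyrimidines, was at RPS24. The same feature was found at 15 of 17 starts of translation factors and other genes known for TOP mRNAs, such as EEF1A1 and PABPC1, and at 5 of 78 starts of mitochondrial ribosomal proteins (6.41%), which are encoded in the nucleus but serve the separate ribosome of the mitochondrion. These shares are descriptions.

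Short motifs were searched on both strands from 250 bases before to 50 bases after each start. The ETS core CCGGAAG was present at 21 of the 59 members (35.6%) and at 14.2% of all autosomal protein-coding starts, and the YY1 core AAGATGG at 11 members (18.6%) and at 6.35% of all. Shares were close to those of all starts for the GC box GGGCGG (59.3% against 61.8%), for CCAAT (33.9% against 35.7%), for the E box CACGTG (6.78% against 8.70%) and for TGGGAA, the core bound by Ikaros (25.4% against 21.96%). The mitochondrial ribosomal proteins held the ETS and YY1 cores at 41.0% and 32.1% of starts. Both ribosome families thus share these letters but not the pyrimidine start. The ETS core is not particular to them, being at 43.2% of starts of ribosome biogenesis genes and 34.5% of other initiation factors. It was at 17.6% of starts of the genes known for TOP mRNAs. The YY1 core was at 11.4%, 6.90% and 17.6% of starts in these 3 lists. Members with the pyrimidine run had a median accessibility of 38.2 CPM per kb of region (CPM, the count divided by the library total and scaled to a total of 1e+06) and the 16 without it 23.9, a description over genes that also differ in their neighbours and in which start was annotated.

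Most of these regions were open in most libraries. A peak was called in all 28 libraries at 35 of the 63 members, or 55.6%, against 29.2% of the 18012 start-site regions and 42 of 65 start-site regions of mitochondrial ribosomal proteins (64.6%). Peaks were called in at least 20 libraries at 60 members, or 95.2%, against 52.3% of start-site regions. The 3 others were RPL19 with 12 libraries, RPL10L with 4, and a second RPL22 region with 2. In any 1 library between 47 and 62 members (74.6% to 98.4%) had a peak, against 47.8% to 72.0% of start-site regions. The fewest members were called in KMS21BM and PE1, which held 1680329 and 1599857 counts and where 54.1% and 47.8% of start-site regions had a peak. The deepest library, H1112 with 5564534 counts, was among those with 62.

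Accessibility was above that of the median start-site region and close to that of the mitochondrial ribosomal proteins. The median over the 22 untreated lines, taken first per member, had a median of 27.5 CPM over the 63 members and quartiles of 20.6 and 43.0. All start-site regions had a median of 14.6 CPM and the mitochondrial ribosomal proteins 31.1 CPM. Because regions differ in width (median 887 bp for members and 839 bp for all start-site regions), levels of different genes are compared per kb, where the medians were 32.1 for members, 17.4 for all start-site regions and 30.8 for the mitochondrial set. Large subunit members had a median of 28.9 CPM per kb and small subunit members 38.2, with quartiles of 21.8 and 42.5 for the large and 28.4 and 47.9 for the small subunit, so the ranges overlapped broadly.

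**Figure D1:**
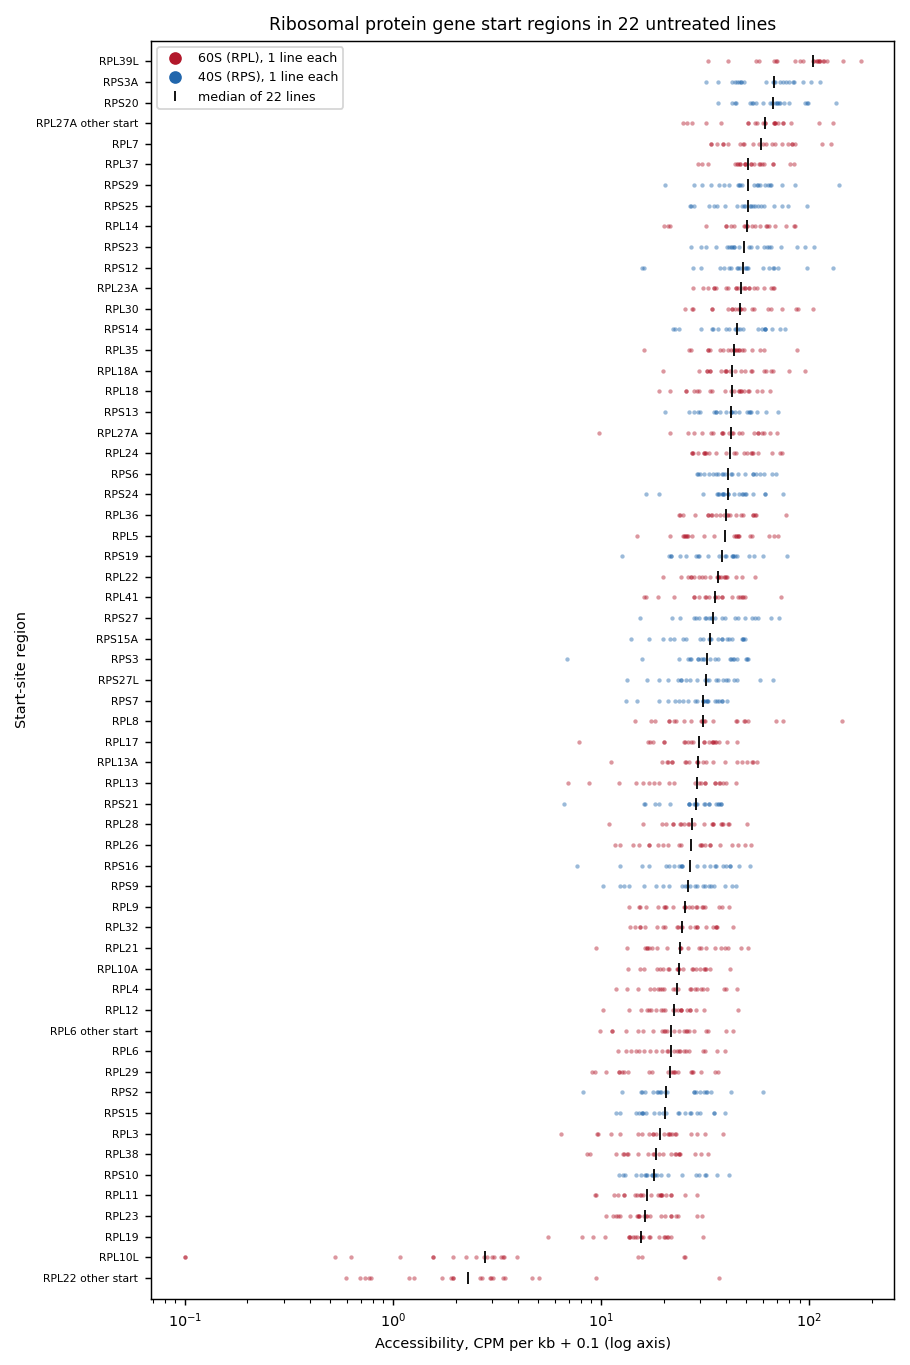
Accessibility of 60 of the 63 ribosomal protein start regions in CPM per kb plus 0.1 (log axis), with 1 point for each of 22 untreated lines, red for large and blue for small subunit genes, and a black bar for the median. Those plotted, other than RPL10L and the second RPL22 region, have medians between 15.4 and 104 CPM per kb, and the spread of lines within a member is about as wide as the distance between most members.

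The highest member per kb was RPL39L, one of the paralogs without a pyrimidine start. Its region (chr3:186856830-186857748) measured 30.1 CPM in the lowest line, OCIMY5, 95.9 CPM in the median and 162 CPM in the highest, MM1S. At 104 CPM per kb its median exceeded that of 99.6% of start-site regions. RPS3A, a small subunit protein, followed with 67.6 CPM per kb and lines between 37.2 and 131 CPM around a median of 79.2 CPM. RPS20 had 67.2 CPM per kb, with a median of 57.6 CPM and lines between 31.2 and 115 CPM. RPL7, of the large subunit, had the most counts of all members, 138 CPM in the median line with a range from 79.4 to 302 CPM, but its region of 2364 bp also held the start of RDH10 and its level per kb was 58.4. RPS29 completed the 5 highest by CPM, with a median of 61.3 CPM and 168 CPM in Karpas620. The ranges over lines of these members overlapped, and differences between members in this order were not tested.

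At the low end, RPL10L had a median of 1.71 CPM, from no counts in KMS34 and LP1 to 16.1 CPM in KMS20. It had a peak in 4 untreated libraries, KMS20 (75 counts), H1112 (88 counts, 15.8 CPM), XG-6 (16 counts, 9.98 CPM) and KMS21BM (16 counts, 9.52 CPM), and at most 8 counts in each of the other 24 libraries. RPS10, RPL38 and RPL23 were the lowest of the open members at 11.6, 12.1 and 12.7 CPM. RPL38 is known for its part in the translation of Hox mRNAs, and RPL23 is another ribosomal protein that binds MDM2. RPL23 begins with a C followed directly by a G at the annotated start. RPL19 had a median of 13.4 CPM, near these, in spite of peaks in only 12 libraries, so calls of a peak and counts ordered these low members differently.

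A second start region was listed for 3 genes. The second RPL22 region (chr1:6269083-6270019) lay 9.90 kb from the canonical RPL22 start within RNF207, had between 0.465 and 8.73 CPM in the other untreated lines, and stood at 34.5 CPM in untreated and 40.5 CPM in lenalidomide-treated RPMI8226, the only 2 libraries with a peak there. The main RPL22 region was at 42.0 and 45.2 CPM in those libraries, within its range in other lines. The second RPL6 region (chr12:112856262-112857381) held the start of PTPN11 and had a median of 24.2 CPM, against 15.7 CPM at the RPL6 start itself. The second RPL27A region (chr11:8710053-8710897) lay 6.14 kb downstream of the canonical start, inside the gene near its 3′ end. It was open in all 28 libraries with a median of 52.0 CPM in 845 bp, against 43.5 CPM in 1035 bp at the main region, which also holds the start of TRIM66.

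A total of 10 regions held the canonical start of their own gene and that of another coding gene, such as LRSAM1 at RPL12, SPHK2 at RPL18, ARPC5L at RPL35, ZWILCH at RPL4, LIAS at RPL9 and TRAPPC4 at RPS25, and accessibility there cannot be assigned to either gene. The reverse also occurred. Of 73 ribosomal protein genes with symbols of this form, 17 had no member region. RPL10, RPL36A, RPL39 and RPS4X lie on chromosome X, and no X-chromosomal region was analysed here. The other 13, among them RPL7A, RPL15, RPL27, RPL31, RPL34, RPL35A, RPL37A, RPS18, RPS26, RPS27A and RPS28, started in a region that carried the symbol of a neighbour. Those regions had a peak in 25 to 28 libraries, and the median levels of those named ran from 21.9 CPM at RPS28 to 86.0 CPM at RPL15, within the range of the members.

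The members varied less between lines than a typical start-site region. Over the 22 untreated lines the standard deviation (SD) of log2(CPM + 1) had a median of 0.51 over the 63 members and 0.71 over all start-site regions. Part of that gap went with the level, since among regions with at least 10 CPM the medians were 0.49 for 61 members, 0.56 for 10314 start-site regions and 0.49 for 61 mitochondrial ribosomal protein regions. When each member was ranked among the 1000 start-site regions nearest to it in mean, its SD had a median percentile of 37.9, and 45 of 63 members were below the 50th. Counting error alone would give a median SD of 0.18, so most of the spread is not counting error, but with 1 library per line, differences between lines and between preparations cannot be told apart.

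The steadiest member was RPL22, a protein of the large subunit that is also bound by a small RNA of Epstein-Barr virus, with 17.4 CPM in KMS12BM, 32.0 CPM in the median line and 48.4 CPM in L363 (SD 0.33). RPL23A (SD 0.36), RPL37 (0.38), RPS6 (0.39) and RPL10A (0.39) followed. RPS6, the small subunit protein phosphorylated by S6 kinase, stayed between 28.7 CPM in XG-6 and 69.3 CPM in OCIMY5.

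The widest spread among members with at least 10 CPM was at RPL8, close to the peptidyl transferase centre of the ribosome, with 12.6 CPM in U266, 26.7 CPM in the median line and 125 CPM in KMS18 (SD 0.77). RPL13 (SD 0.70) owed its spread to low lines, of which KMS12PE had 6.11 CPM against a median of 25.8 CPM. RPS12 (SD 0.70) ran from 15.8 CPM in H1112 and 16.2 CPM in XG-6 to 132 CPM in KMS18. RPL26 (SD 0.62) and RPS16 (SD 0.62) completed the 5, with lines from 11.004 to 49.8 CPM and from 4.83 to 32.9 CPM. Of the members with other known roles, RPL5 lay between 14.0 CPM in KMS20 and 66.8 CPM in L363 around 36.8 CPM, and RPL11 between 7.14 CPM in KMS21BM and 22.4 CPM in U266 around 12.8 CPM. RPS14, lost in the 5q- syndrome of the bone marrow, lay between 19.3 and 66.7 CPM around 39.6 CPM, and RPS19 between 13.2 CPM in KMS12PE and 82.2 CPM in KMS34 around 40.2 CPM. RPL3, which lines the peptidyl transferase centre, had a median of 18.6 CPM and RPL13A, known from the interferon-γ-regulated silencing of mRNAs, a median of 20.7 CPM, and KMS12PE was the lowest line at both (6.11 and 7.89 CPM).

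Members followed the start-site regions around them. Pearson's r over the 22 lines between a member and the mean of the other start-site regions within 2 Mb (10 to 123 regions) had a median of 0.67 over the 63 members, and 52 were above 0.5. With start-site regions on other chromosomes the median r was 0.30. The points share a library and its depth. When each library was scaled to its total in start-site regions, the medians were 0.59 and -0.04, and 62 of 63 members had the higher r with their own neighbourhood. This was not particular to these genes, since 10313 start-site regions with at least 10 CPM had a median r of 0.61 with their neighbours, or 0.55 under that scaling. On the scale of library totals, subtracting the neighbours lowered the SD of 61 members and brought its median from 0.51 to 0.38. Scaling to start-site regions, without subtraction, already gave a median SD of 0.46. How much of the drop is local was not tested.

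**Figure D2:**
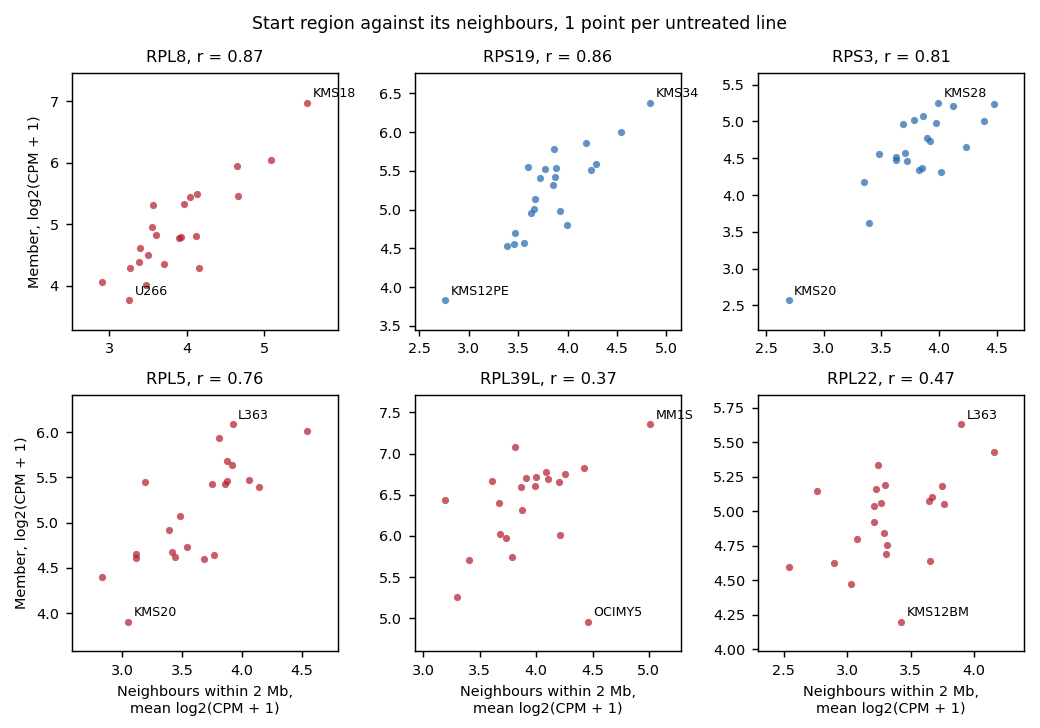
log2(CPM + 1) of 6 members (vertical axis) against the mean of the other start-site regions within 2 Mb (horizontal axis), with 1 point per untreated line and the highest and lowest line named. RPL8, RPS19 and RPS3 follow their neighbours with r of 0.87, 0.86 and 0.81, while OCIMY5 is low at RPL39L although its neighbours there are high.

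The extreme lines of most members showed the same. In the highest line of a member the neighbours were also above their own median for 60 of 63 members (95.2%), and in the lowest line they were below it for 61 (96.8%), against 87.8% and 88.1% of start-site regions with at least 10 CPM. With libraries scaled to start-site regions the counts were 56 (88.9%) and 57 (90.5%), against 85.9% and 85.8%. The values that follow are on the scale of library totals. RPL8 in KMS18 was 2.18 log2 units above its median line and its neighbours were 1.75 above theirs. RPS3 in KMS20, with 4.94 CPM against a median of 23.4 CPM, was 2.04 below and its neighbours 1.15 below, and RPS21 in KMS21BM was 1.91 below and its neighbours 1.22 below. Copy number of these segments was not analysed here, and its part in these values was not tested.

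RPL39L was the main exception. In OCIMY5 it was 1.64 log2 units below its median while its neighbours were 0.57 above theirs, and its r with the neighbours was 0.37. RPL22 in its lowest line, KMS12BM, was 0.84 below with neighbours 0.14 above. Low r was also seen at the second RPL22 region (0.28), RPL38 (0.30), RPS15A (0.35), RPL11 (0.36) and RPS24 (0.38). Median counts were 6 at the second RPL22 region, 28.5 at RPL38 and 31.5 at RPL11, against 68.5 at RPS15A, 74 at RPS24 and 219 at RPL39L. The part of counting error in these r values was not tested. Members on different chromosomes were only weakly related after scaling to start-site regions, with a median r of 0.10 over 1839 pairs, against 0.72 over 10 pairs within 2 Mb. Close pairs of different genes include RPL13A and RPL18, 868 kb apart (r = 0.88), and RPL28 and RPS9, 1192 kb apart (0.88). The 10 also hold the second regions of RPL22, RPL27A and RPL6, each paired with the main region of the same gene (0.28, 0.75 and 0.46). These pairs share their neighbourhood as well as their libraries.

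Lines nevertheless differed in the level of the set. Expressed as the deviation from each member's own median over the lines, with libraries scaled to start-site regions, the median over the 63 members ran from -0.38 to 0.20 on the log2 scale (SD over lines 0.17). KMS21BM was lowest at -0.38 with 50 of 63 members below their median, followed by XG-6 at -0.32 (51 below), KMS12PE at -0.28 (45 below) and KMS26 at -0.25 (43 below). OCIMY5, U266 and OPM2 were highest at 0.20, 0.20 and 0.19. In KMS21BM and XG-6 both subunits were on the same side, at -0.47 for large and -0.24 for small subunit members in KMS21BM and at -0.26 and -0.42 in XG-6. This did not hold in every line, with KMS34 at 0.10 for large and -0.23 for small subunit members. On the scale of library totals, KMS12PE was the lowest line at 12 members and U266 the highest at 12.

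Related gene sets were partly on the same side in those lines. The mitochondrial ribosomal proteins were at -0.12 in KMS21BM, -0.06 in XG-6 and 0.03 in KMS12PE, but at -0.23 in KMS26. The genes known for TOP mRNAs were at -0.41, -0.35, -0.10 and -0.15 in the same 4 lines. Other initiation factors were at -0.23, -0.04, -0.15 and -0.05, and ribosome biogenesis genes at -0.31, -0.03, -0.14 and 0.02. A total of 3178 other start-site regions whose GC content lay within the quartiles of the members (56.8% and 62.9%) deviated by -0.05 to 0.11 in all 22 lines. KMS21BM, XG-6, KMS12PE and KMS26 held 1680329, 1602855, 3929936 and 1635784 counts, and PE1, with members at 0.03, held 1599857. The part of depth in these values was not tested. With 1 library per line, the part of the line and that of the preparation cannot be told apart.

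**Figure D3:**
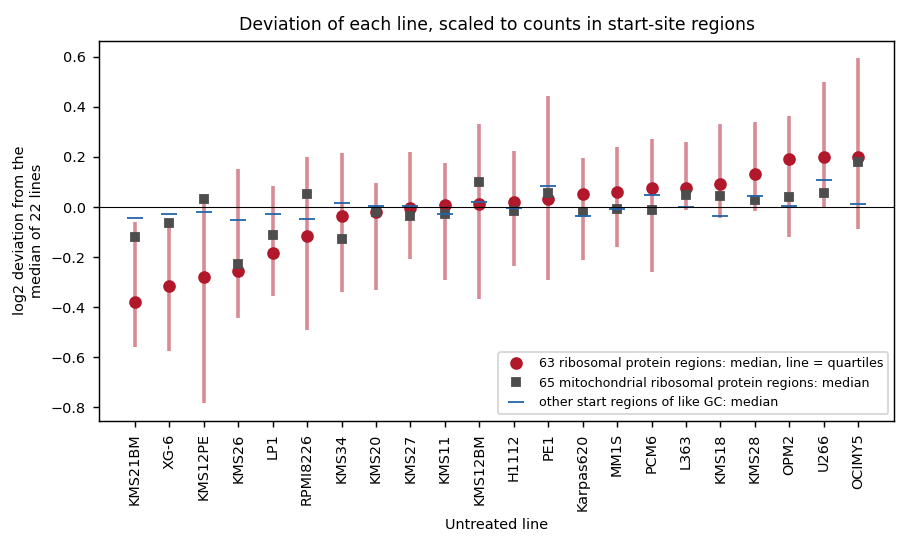
Deviation of each untreated line from the median of 22 lines (log2, libraries scaled to start-site regions) as the median over 63 ribosomal protein regions (red, bars for quartiles), over 65 mitochondrial ribosomal protein regions (grey squares) and over other start-site regions of like GC content (blue dashes). KMS21BM, XG-6, KMS12PE and KMS26 are lowest at -0.38 to -0.25, and in the first 3 the mitochondrial set lies between -0.12 and 0.03.

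Lenalidomide makes the E3 ligase substrate receptor cereblon target the transcription factors Ikaros and Aiolos for degradation, and the 6 pairs of libraries address whether accessibility differed after treatment. Across all 37732 regions tested, edgeR's quasi-likelihood test with the line as a block called 2036 (5.4%) at a Benjamini-Hochberg adjusted p below 0.05, 4.17% of the tested regions higher and 1.22% lower. Among the 13093 start-site regions tested, 2.47% were called. Of the 63 members, 61 passed the filter on low counts, and RPL10L and the second RPL22 region did not. The second RPL27A region and RPS3A were called, both lower. No member was called higher, either by edgeR, in which 4 members had an unadjusted p below 0.05 and all 4 were lower, or by DESeq2, in which 3 members had an unadjusted p below 0.05. Among start-site regions 1.97% were called higher and 0.496% lower.

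In CPM scaled by the trimmed mean of M values (TMM), a correction for composition, the second RPL27A region lay between 41.6 and 143 (median 76.9) in the 6 untreated libraries and between 31.6 and 119 (median 55.1) in the 6 treated ones. The groups overlapped because lines differ more than conditions, with KMS27 highest and RPMI8226 lowest in both. Within pairs the treated library was lower in 6 of 6, by 0.25 to 0.53 log2 units. The fitted change was -0.35 ± 0.10 (SE, n = 6 lines, edgeR adjusted p = 0.0226). The main RPL27A region was also lower in 6 of 6 pairs, with -0.15 ± 0.10 and an edgeR adjusted p of 0.457, which did not pass. The call at the second region was lost without KMS27 (edgeR adjusted p = 0.0532), without MM1S (0.0912) or without OPM2 (0.0880), and was lost under DESeq2 (0.126).

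RPS3A lay between 65.8 and 136 (median 114) untreated and between 52.7 and 111 (median 93.9) treated in TMM-scaled CPM, again with overlapping groups. It was lower in 6 of 6 pairs, by 0.10 in L363 to 0.48 in OPM2, with a fitted change of -0.28 ± 0.09 (SE, n = 6 lines, edgeR adjusted p = 0.0458). This call was lost when any 1 of the 6 lines, Karpas620, KMS27, L363, MM1S, OPM2 or RPMI8226, was left out, with adjusted p between 0.0537 and 0.185, under DESeq2 (0.216), and in every other alternative fit run except that with library totals in place of TMM. The promoter of RPS3A is shown because it is the 1 called member with its own start, from 200 bases before the start through 15 bases from it, with motif matches in capitals.
RPS3A, chr4:152020580-152020794, plus strand: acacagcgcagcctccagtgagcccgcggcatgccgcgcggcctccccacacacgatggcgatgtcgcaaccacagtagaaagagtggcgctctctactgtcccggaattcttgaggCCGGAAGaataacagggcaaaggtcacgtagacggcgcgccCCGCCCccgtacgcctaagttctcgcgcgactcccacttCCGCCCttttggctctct
It held 1 ETS core that begins 83 bases before the start and 2 GC boxes on the reverse strand, the second of which spans the start. TGGGAA was not among the letters of this window.

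**Figure D4:**
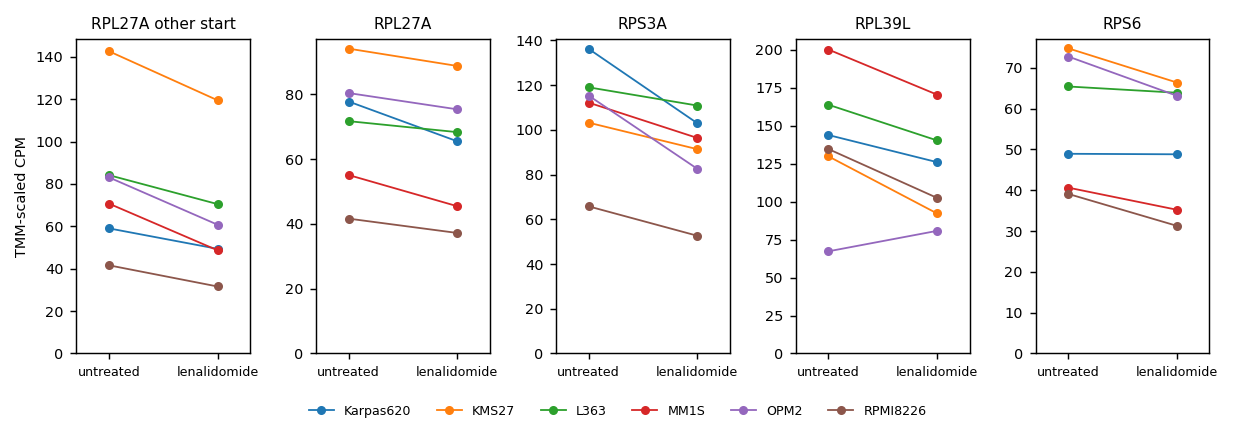
TMM-scaled CPM of 5 member regions in 6 lines, untreated and after lenalidomide, with 1 coloured line per cell line. The second RPL27A region, the main RPL27A region, RPS3A and RPS6 are lower in all 6 pairs, and RPL39L is lower in 5 with OPM2 going the other way.

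Of the members that were not called, RPL39L came nearest with -0.24 ± 0.08 (SE, n = 6 lines, edgeR adjusted p = 0.0974). It went from a median of 139 to 114 TMM-scaled CPM and was lower in 5 of 6 pairs, while OPM2 was at 67.3 untreated and 80.8 treated. Without OPM2 the region was called (edgeR adjusted p = 0.0321). RPS7 had -0.21 ± 0.11 (edgeR adjusted p = 0.305) and was lower in 5 of 6 pairs with Karpas620 the exception. A total of 6 of the 61 members tested were lower in 6 of 6 pairs, and none was higher in all 6. Among the 6 were the 2 RPL27A regions, RPS3A, RPS6 and RPS16. Of all regions tested, 4.31% were lower and 5.09% higher in all 6 pairs. The same shares over start-site regions alone were not computed. RPS6 had -0.15 ± 0.11. RPL11 had the highest fitted value of any member, 0.28 ± 0.20 (edgeR adjusted p = 0.533), at a low level of 14.0 and 17.5 TMM-scaled CPM, and was higher in 5 of 6 pairs, by 0.05 in OPM2 to 0.84 in Karpas620, and lower in KMS27. RPL5 (-0.14 ± 0.11), RPL22 (-0.07 ± 0.12), RPL3 (0.01 ± 0.15), RPL13A (-0.01 ± 0.13), RPS14 (-0.12 ± 0.11), RPS19 (0.07 ± 0.12) and RPS27L (-0.18 ± 0.12) each lay less than 2 SE from 0.

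**Figure D5:**
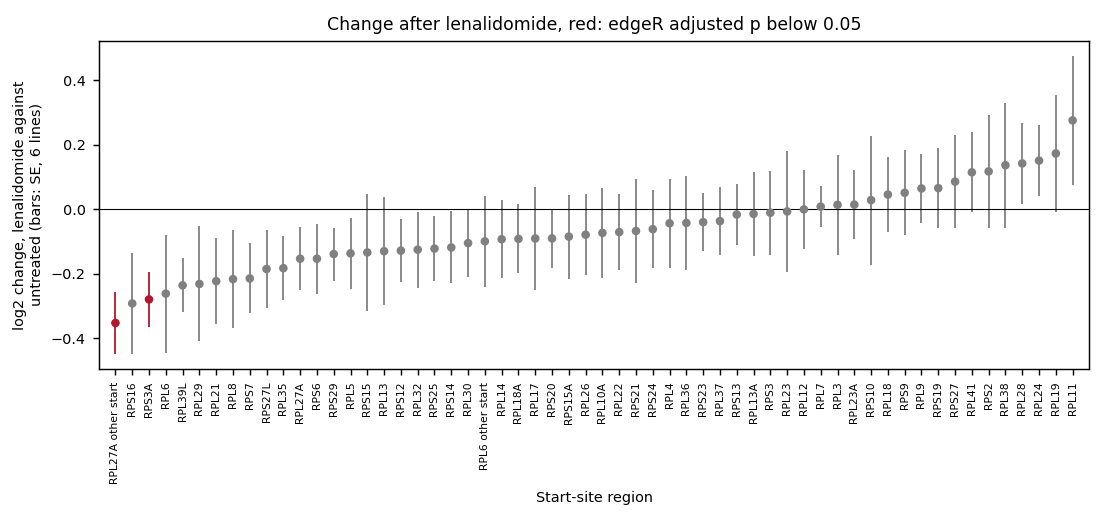
Fitted log2 change after lenalidomide for 58 of the 61 members tested, ordered by value, with red for the 2 called by edgeR. Bars give the SE of the fit to 6 lines. Values run from -0.35 at the second RPL27A region to 0.28 at RPL11, with 42 of the 58 below 0.

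Fitted values of the members leaned to the lower side by a small amount. A total of 45 of 61 were below 0 (73.8%), against 51.7% of all regions and 54.9% of start-site regions, and the median change was -0.08, against -0.01 for all regions and -0.02 for start-site regions. The medians were -0.07 for large and -0.09 for small subunit members, -0.05 for the mitochondrial set, of which 41 of 63 were below 0, and -0.11 for the genes known for TOP mRNAs, of which 11 of 15 were. Other initiation factors had 18 of 25 below 0 and a median of -0.07, and ribosome biogenesis genes 21 of 42 and -0.01. In the list of TOP genes NPM1, a nucleolar chaperone, was called lower (-0.30 ± 0.09, edgeR adjusted p = 0.0467). None of the mitochondrial set (7 with unadjusted p below 0.05), of the other initiation factors (0), or of 7 regions of ribosomal protein genes with other names such as RPSA, RPLP0 and FAU (0) was called by edgeR. Among 42 regions of ribosome biogenesis genes 1 was called, a weak start of POLR1A, a subunit of RNA polymerase I, which was higher by 1.51 ± 0.20 (edgeR adjusted p = 7.5e-06) at a median of 8.84 CPM, while the strongest POLR1A start (80.2 CPM) was at 0.00 ± 0.10. None of the 13 regions that held a ribosomal protein start under a neighbour's symbol was called.

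The lean was not seen in every pair. In MM1S 48 of 61 members were lower with a median change of -0.21, in KMS27 47 with -0.18 and in L363 45 with -0.10. In OPM2 33 were lower with -0.02, in Karpas620 29 with 0.01 and in RPMI8226 22 with 0.09. The medians of all start-site regions tested were also lowest in MM1S (-0.08) and highest in RPMI8226 (0.07), which is also the pair with the largest difference in depth (2117764 counts untreated and 4248017 treated). The share of start-site counts that fell in members was lower after treatment in 5 of 6 pairs, by most in MM1S (0.493% to 0.448%), and about equal in RPMI8226 (0.435% and 0.437%). Without MM1S the median change of the members was -0.04.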

How the data were processed

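ATAC-seq libraries of 22 untreated lines and of 6 of these after lenalidomide were used, grouped by the labels; no date or batch is given there. Per the submitters' processing notes and methods, the authors used Bowtie2 2.2.6, SAMtools 1.7 and MACS2 2.1.0.20151222 with GRCh37, called peaks per library and merged them into regions. The methods state that putative PCR duplicates were marked. Whether these were left out of the counts, any shifting of read ends and the unit counted (reads or fragments) are not given in the sources used here. The counts per region were used as deposited by the authors. The RPM values the authors deposited equal CPM computed here from these counts. A deposited table of whole numbers per region and library was taken to count each library's own peaks there, although its meaning is not stated. Depth is given in the report, and it sets a median counting SD of 0.18 on the log2 scale per member. No line has a second library. With the line as a block, p-values set the change within pairs against an estimate of its variation from pair to pair, counting error included. edgeR takes this estimate for each region partly from all regions tested. Neither p-values nor SEs therefore measure the spread of a member's own 6 changes alone.

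Levels are CPM over all regions, and logs use a pseudocount of 1. The lenalidomide fit used edgeR 4.0.16 in R 4.3.3 with TMM, filterByExpr by condition and the line as a block on all regions, Benjamini-Hochberg adjusted over all 37732 tested. SEs equal the absolute log2 change divided by the square root of F, so they rest on the same shared estimate of variation. Libraries of 1 line are paired by the labels, and deviations within pairs correlated at 0.82 to 0.89. The fit was tested on simulated data. Starts and sequences came from GENCODE v44 mapped to GRCh37.

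The members and lists were chosen with earlier results of these data known. Named were the 5 highest and 5 lowest members by median CPM, the 5 largest and 5 smallest SDs among those of at least 10 CPM, the called members with those of smallest p up to 5, members without a peak in some library (here by counts and examples), and 8 genes and 4 paralogs with other known roles. RPL3L, one of these, has no region. A few genes are not reported here by name and were left out of plots by gene, but stay in counts, medians and fits. Alternatives were DESeq2 1.42.0, other scalings, filters, windows and pseudocounts, no block, and each line left out.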

Additional observations from a re-analysis of the deposited data

Results flagged for a closer look

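Among 46 sets of 6 within-pair changes screened (45 named members and the members' median), 2 had a value far from the other 5, and chance alone gives about 2.3. The change of RPS27L after lenalidomide was 0.330 in OPM2 on the log2 scale, while the next highest pair was at -0.104. The change of RPS29 was 0.0666 in MM1S, while the next was at -0.109.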

How the results depend on the processing

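The 2 members called after lenalidomide, both lower, became 0 under DESeq2, with no filter on low counts and with no replicate block, and 1 with scaling by start-site regions, trended offsets or at least 10 counts in each library, and 0 to 1 with each line left out. The 1 call was the second RPL27A region, except without OPM2, where it was RPL39L. Library totals without TMM kept the count of 2. Without the block for the line, none of the 37732 regions was called by edgeR, and 440 had an unadjusted p below 0.05. That fit leaves the difference between lines in the error. No setting called a member higher. The median change of the members stayed below 0, from -0.11 without Karpas620 to -0.02 with no filter on low counts. The median of start-site regions moved as well. The median of members minus that of start-site regions ran from -0.08 without OPM2 to -0.03 without MM1S. It was -0.06 in the main fit and -0.06 with no filter on low counts. The median level was 27.5 to 27.9 CPM and the median SD 0.46 to 0.54 over the scalings and pseudocounts run, 39 members had at least 10 CPM in every library beside the 35 with a peak in every library, and the median r with neighbours was 0.59 to 0.69 over windows of 1 Mb, 2 Mb and 5 Mb and scaling by start-site regions. Depth limits what single members can show: the SE of a change had a median of 0.12 on the log2 scale over 61 members. The cause of the lost calls was not tested.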
